A study of Homo sapiens with 48 samples.

Results

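The replication-dependent histone genes were taken as every gene whose symbol begins with HIST1H, HIST2H, HIST3H or HIST4H, which gave 67 of the 19102 genes measured. They comprised 6 genes of the linker histone H1, 16 of H2A, 18 of H2B, 13 of H3 and 14 of H4. By symbol, 55 carried the HIST1 prefix, 8 HIST2, 3 HIST3 and 1 HIST4. Polyadenylated RNA of A382, an established human glioblastoma cell line, had been sequenced from strand-specific libraries after loss of subunits of the EP400/TIP60 complex, which acetylates histones and exchanges histone variants, or after induction of p53. A total of 44 libraries came from cells infected with guide RNAs and collected on day 9. They held 4 non-targeting control guides (sgNeg1 to sgNeg4, 2 libraries each), guides against BRD8 and against the histone variant H2AZ (4 libraries each) and guides against TIP60, EP400, TRRAP, GAS41, ING3, ACTL6A, DMAP1, MRGBP, VPS72, MEAF6, RUVBL1, RUVBL2, MORF4L1 and MORF4L2 (2 libraries each, 1 per guide). A further 4 libraries came from day 2 of doxycycline, 2 of cells with a control vector and 2 of cells with an inducible p53 vector, so the controls had received doxycycline too. The guide labels describe infected cells and no isolated clones, and they do not say that replicates were separate cultures, so p-values measure the spread between libraries, which may be technical.

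Histones package DNA into nucleosomes, made of H2A, H2B, H3 and H4, with H1 bound to the DNA between them. Most replication-dependent histone mRNAs are made in S phase, when DNA is copied, and end in a short stem-loop bound by the protein SLBP instead of a poly(A) tail. Some of these genes can also be transcribed past the stem-loop to a poly(A) signal, which gives polyadenylated transcripts, and libraries made from poly(A) RNA register that form.

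The deposited values are FPKM, fragments scaled by transcript length and library depth, in 5 separately normalized sections of the table, each with its own controls, so each group was compared with the control pair of its own section. The RNA of the targeted gene stood between 18.6% of its controls (H2AFZ in H2AZ) and 82.3% (TRRAP) in 14 of the 16 knockouts, but at 92.8% for MORF4L2 and 103% for MORF4L1. Of the glioma and neural markers, VIM ranged from 926 to 11300 FPKM over the libraries and CD44 from 118 to 643, whereas GFAP did not exceed 0.347, S100B 0.135 and OLIG2 0.0325. SOX2 ranged from 0.0644 to 79.0, EGFR from 3.15 to 28.7 and NES from 0 to 8.75. Markers of immune (PTPRC), endothelial (PECAM1), neuronal (RBFOX3) and oligodendrocyte (MBP) cells did not exceed 0.333, but CD68, also an immune marker, ranged from 0.978 to 74.0 (median 18.5) and VWF, also endothelial, reached 3.28. The part of other cell types in the histone values was not tested. For MEAF6 and VPS72 the second guide's columns held the same values and were left out, so MEAF6 and VPS72 rest on 1 library each and 46 columns were used.

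The sequence elements at the ends of histone transcripts bear on which members a poly(A) library can register, so they are shown first. In the GENCODE annotation (release 29, GRCh38), 28 members had a coding transcript with the histone stem-loop, which 0.0469% of all 83129 protein-coding transcripts held. The letters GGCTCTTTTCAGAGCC were found in 15 members, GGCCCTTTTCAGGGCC and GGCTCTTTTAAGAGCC in 5 each, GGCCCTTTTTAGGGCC in 2 and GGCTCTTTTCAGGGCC in 1. A poly(A) signal, AATAAA or ATTAAA on the transcript strand within the last 40 bases, was found in a coding transcript of 20 members and in 42.9% of all protein-coding transcripts. The following genes were chosen because the results turn on them. Capitals mark the stem-loop, with 5 flanking bases on each side, or the poly(A) signal, with up to 10 on each side.
HIST1H2AG stem-loop (chr6:27133510-27133535, plus strand): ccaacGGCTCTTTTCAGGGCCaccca
HIST1H2AG poly(A) signal (chr6:27135259-27135284, plus strand): ctaaattcatAATAAAgtgaaatgtt
HIST1H2AC stem-loop (chr6:26124664-26124689, plus strand): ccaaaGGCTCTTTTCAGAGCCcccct
HIST1H2AC poly(A) signal (chr6:26139078-26139102, plus strand): ggcatgaggtAATAAAaggtaatgc
HIST1H2BD stem-loop (chr6:26158582-26158607, plus strand): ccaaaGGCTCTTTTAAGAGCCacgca
HIST1H2BD poly(A) signal (chr6:26158605-26158630, plus strand): gcatgttttcAATAAAtgagttgtaa
HIST2H2BE stem-loop (chr1:149886183-149886208, minus strand): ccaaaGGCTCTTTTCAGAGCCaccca
HIST2H2BE poly(A) signal (chr1:149884467-149884492, minus strand): tattgttattAATAAAgttaccaatt
HIST1H3G stem-loop (chr6:26270918-26270943, minus strand): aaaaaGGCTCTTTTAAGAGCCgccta
HIST1H3G poly(A) signal (chr6:26269411-26269436, minus strand): ataatagtttAATAAAacctatgttc
HIST1H4H stem-loop (chr6:26285126-26285151, minus strand): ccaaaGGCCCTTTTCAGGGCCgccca
HIST1H4H poly(A) signal (chr6:26281064-26281089, minus strand): ataaaaggtgAATAAAatcaggtcac
In HIST1H2BD the stem-loop ended 39 bases before the end of the annotated transcript. In HIST1H2AG 1761 bases followed it, in HIST2H2BE 1729, in HIST1H3G 1518, in HIST1H2AC 1114 and in HIST1H4H 630.

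Levels were spread over a wide range and a few genes held most of the signal. Over the 40 libraries outside the sgNeg1/BRD8 section, HIST1H2BK had a mean FPKM of 71.3, HIST1H2BD 57.0, HIST1H1C 49.7, HIST1H2AC 35.2, HIST2H2BE 18.0, HIST3H2A 16.1 and HIST1H4H 11.6, and these 7 were the members with a mean of at least 10. They encode H2B, H1, H2A and H4. The H3 genes were lower, led by HIST1H3E at 3.43, HIST1H3D at 2.16 and HIST1H3H at 2.01. The next H2A and H4 genes were HIST1H2AE at 4.15, HIST1H4E at 1.81 and HIST1H4I at 0.892, and after HIST1H1C the next H1 genes were HIST1H1E at 0.415 and HIST1H1B at 0.187. In all, 45 members reached an FPKM of 1 in at least 1 of these libraries, 8 reached it in each of them and 6 were listed at 0 in all 40. A single fragment on a weak histone gene was worth, by the median over such genes in each library, 0.19 to 0.447 FPKM beside sgNeg2 and 0.24 to 0.321 beside sgNeg3. It was worth 0.49 to 0.844 beside sgNeg4 and 0.283 to 0.303 in the doxycycline libraries. Values under 1 FPKM thus stand for a few fragments, and beside sgNeg4 for as few as 1.

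**Figure D1:**
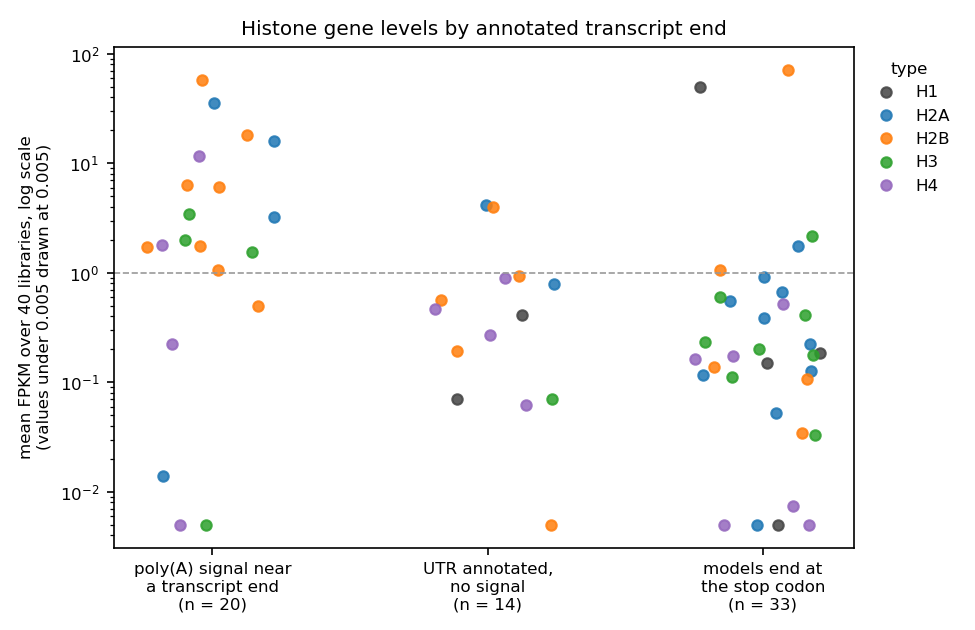
Mean FPKM of the 67 histone genes over 40 libraries (log scale, 1 point per gene, coloured by histone type) for genes with a poly(A) signal near an annotated transcript end, genes with an annotated UTR but no signal, and genes whose models end at the stop codon. Of the 20 genes with a signal, 15 lie at or above 1 FPKM, against 2 of 14 and 5 of 33, while HIST1H2BK at 71.3 and HIST1H1C at 49.7 stand at the top of the last column.

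Members with an annotated poly(A) signal had a median of their mean FPKM of 1.91 and 15 of these 20 were at a mean of at least 1. Among the 47 members without one, the median was 0.2 and 7 were at a mean of at least 1. The annotation limits this description, since the models of 33 members ended at the stop codon with no UTR, and HIST1H2BK and HIST1H1C were among them. Of the 67 members, 58 had only single-exon coding transcripts and 9 had a coding transcript with at least 2 exons.

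Promoter sequences of the RefSeq table (GRCh38.p14, 250 bases before to 50 bases after the start) were matched for 62 members. Among them, 42 held TATAAA, 53 held CCAAT and 26 held the octamer ATTTGCAT, each searched on both strands, where matches to TATAAA on opposite strands can overlap. Over all 35116 promoters of that length the shares were 11.5%, 34.6% and 1.77%. The octamer, a site known from H2B promoters, was found in 14 of 18 H2B and 11 of 15 H2A promoters, in 1 of 11 H3 promoters and in none of the 6 H1 or 12 H4 promoters. CCAAT was found in each H1, H2A, H2B and H3 promoter and in 3 of 12 H4 promoters. The start sites of 12 pairs of members ran in opposite directions 194 to 248 bases apart, so that the windows of such a pair overlap and share motifs. The promoters of HIST1H2AG, which stood out under TIP60 loss and p53, of HIST1H1C and of HIST1H4H follow with these motifs in capitals.
HIST1H2AG promoter (chr6:27132793-27133092, plus strand): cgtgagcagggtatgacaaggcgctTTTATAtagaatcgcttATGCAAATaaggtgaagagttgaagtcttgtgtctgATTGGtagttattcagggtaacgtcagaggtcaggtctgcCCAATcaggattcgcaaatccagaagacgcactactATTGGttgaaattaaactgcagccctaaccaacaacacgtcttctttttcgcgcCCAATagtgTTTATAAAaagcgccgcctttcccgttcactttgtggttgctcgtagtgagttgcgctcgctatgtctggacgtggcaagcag
HIST1H1C promoter (chr6:26056421-26056720, minus strand): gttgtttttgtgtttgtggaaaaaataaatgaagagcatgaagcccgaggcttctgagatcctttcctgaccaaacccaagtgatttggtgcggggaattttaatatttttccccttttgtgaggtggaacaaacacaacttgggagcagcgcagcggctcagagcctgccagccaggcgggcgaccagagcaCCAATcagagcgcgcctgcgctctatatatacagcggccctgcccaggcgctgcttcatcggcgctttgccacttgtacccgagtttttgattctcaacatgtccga
HIST1H4H promoter (chr6:26285485-26285784, minus strand): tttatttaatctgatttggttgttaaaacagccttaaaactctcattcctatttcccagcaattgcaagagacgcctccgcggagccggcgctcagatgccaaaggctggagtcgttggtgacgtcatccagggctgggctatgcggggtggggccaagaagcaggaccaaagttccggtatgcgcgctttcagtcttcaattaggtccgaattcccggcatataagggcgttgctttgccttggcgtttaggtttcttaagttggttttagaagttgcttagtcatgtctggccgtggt
The HIST1H2AG window, which overlaps that of HIST1H2BJ on the opposite strand, held all 3 motifs. The HIST1H1C window held CCAAT alone, and the HIST1H4H window held none of the 3. A match describes letters in this window only.

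Loss of TIP60, the acetyltransferase encoded by KAT5, was the knockout with the most histone genes called, and genes of each of the 5 types rose. The summed FPKM of the 67 genes was 749 and 426 in the libraries of TIP60 guide 1 and guide 2, against 255 and 244 in sgNeg2. Of 36 members tested, 22 rose and 0 fell (limma on log2(FPKM + 1), Benjamini-Hochberg adjusted p under 0.05 over all 11382 genes), against 15.4% of all tested genes called higher and 42.0% called in either direction. The median log2 fold change of the tested members was 1.09, against -0.09 for all genes, and 28 of the 36 had both TIP60 libraries above both controls, against 26.3% of all genes. A gene was tested only if it reached 1 FPKM in at least 2 libraries of its section, and HIST1H2AL passed only through the TIP60 libraries. In bulk RNA such as this, a change in the share of cells that express a gene and a change in RNA per cell cannot be told apart.

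**Figure D2:**
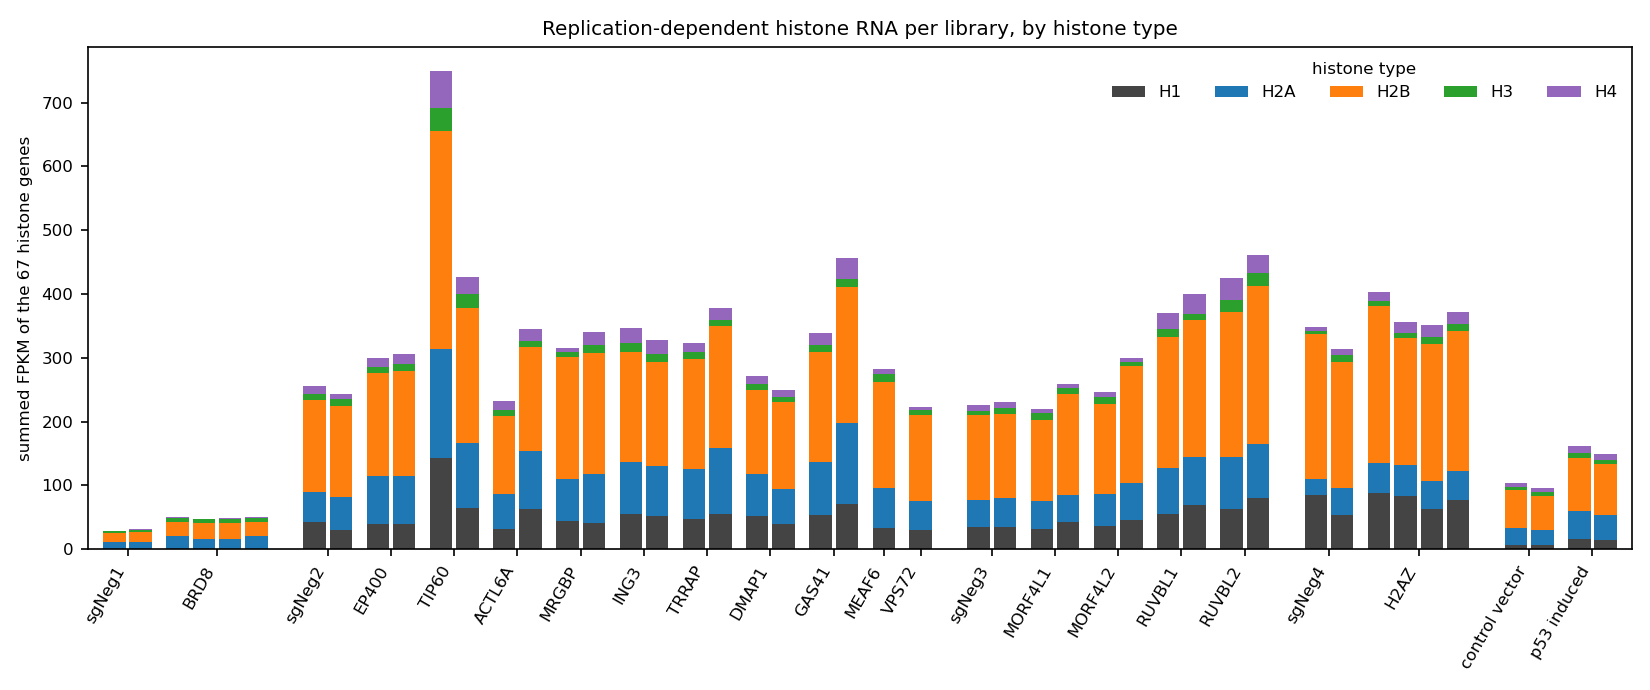
Summed FPKM of the 67 histone genes in each of 46 libraries, stacked by histone type, with wider gaps between the separately normalized sections, across which heights are not comparable. The TIP60 libraries stand at 749 and 426 against 255 and 244 in sgNeg2, and the RUVBL2 libraries at 425 and 461 against 226 and 231 in sgNeg3.

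Among linker histones, HIST1H1C measured 141 and 63.3 FPKM in the TIP60 libraries against 41.0 and 30.3 in sgNeg2. Both libraries exceeded both controls, and the log2 fold change was 1.4 ± 0.32 (SE; limma, adjusted p = 0.00286). Among H2A genes, HIST1H2AG measured 16.8 and 10.7 FPKM against 1.42 and 2.11, the largest fitted change of any member here (2.39 ± 0.28; limma, adjusted p = 1.25e-05). HIST3H2A measured 39.3 and 27.2 against 11.1 and 11.6, a rise of 1.45 ± 0.22, and HIST1H2AC measured 88.8 and 49.5 against 29.6 and 30.7, a rise of 1.11 ± 0.29. For each of these H2A genes both TIP60 libraries lay above both controls, with guide 1 above guide 2. Of 11 H2A genes tested, 6 rose, the others called being HIST1H2AE (1.4), HIST1H2AM (1.5) and HIST1H2AL (1.01).

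Among H2B genes, 9 of 13 tested rose. HIST1H2BD measured 141 and 85.6 FPKM against 53 and 50.4 (log2 fold change 1.07 ± 0.19), and HIST2H2BE measured 45.4 and 27.9 against 13.0 and 15.6 (1.27 ± 0.25). HIST1H2BG measured 16.3 and 7.25 against 0.872 and 2.12 (2.31 ± 0.55), and HIST1H2BJ measured 18.0 and 13.2 against 3.40 and 5.51 (1.62 ± 0.30). HIST1H2BO measured 4.88 and 1.87 and was listed at 0 in both controls. The exception among the abundant genes was HIST1H2BK, at 78.7 and 49.4 FPKM against 63.3 and 56.8, where the groups overlapped (log2 fold change 0.06 ± 0.18; limma, adjusted p = 0.819). HIST1H2BC (1.43), HIST1H2BF (2.09), HIST1H2BH (0.93) and HIST3H2BB (0.92) made up the rest of the H2B genes called.

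Among H3 genes, HIST1H3G measured 14.1 and 5.80 FPKM against 1.60 and 0.861 (2.21 ± 0.32), HIST1H3B 7.81 and 3.46 against 0.782 and 1.06 (1.71 ± 0.40) and HIST1H3H 6.53 and 3.85 against 0.390 and 1.68 (1.65 ± 0.33). These were the 3 of 5 tested that rose. HIST1H3E, the H3 gene with the highest mean, measured 0.786 and 2.32 against 3.25 and 4.17, below both controls, with a log2 fold change of -0.94 ± 0.37 and an adjusted p that rounds to 0.05, which was not called. Among H4 genes, HIST1H4H measured 43.7 and 16.8 against 8.08 and 4.70 (1.97 ± 0.48; limma, adjusted p = 0.00387), and HIST1H4E (1.63) and HIST1H4C (1.31, listed at 0 in both controls) also rose, 3 of 6 tested. The rise depended in size on the guide 1 library. Without it the median log2 fold change of the members tested was 0.92, against -0.12 for all genes. HIST1H1C (0.83), HIST1H4H (1.31), HIST1H2AC (0.70), HIST1H4C, HIST1H4E, HIST1H2BH and HIST3H2BB were then among those that no longer passed. HIST1H4E also lost its call without TIP60 replicate 2 or sgNeg2 replicate 2, HIST3H2BB without TIP60 replicate 2 or sgNeg2 replicate 1, and HIST1H2BH without sgNeg2 replicate 2. HIST1H3B lost its call with a pseudocount of 0.1 (2.39, limma, adjusted p = 0.114).

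**Figure D3:**
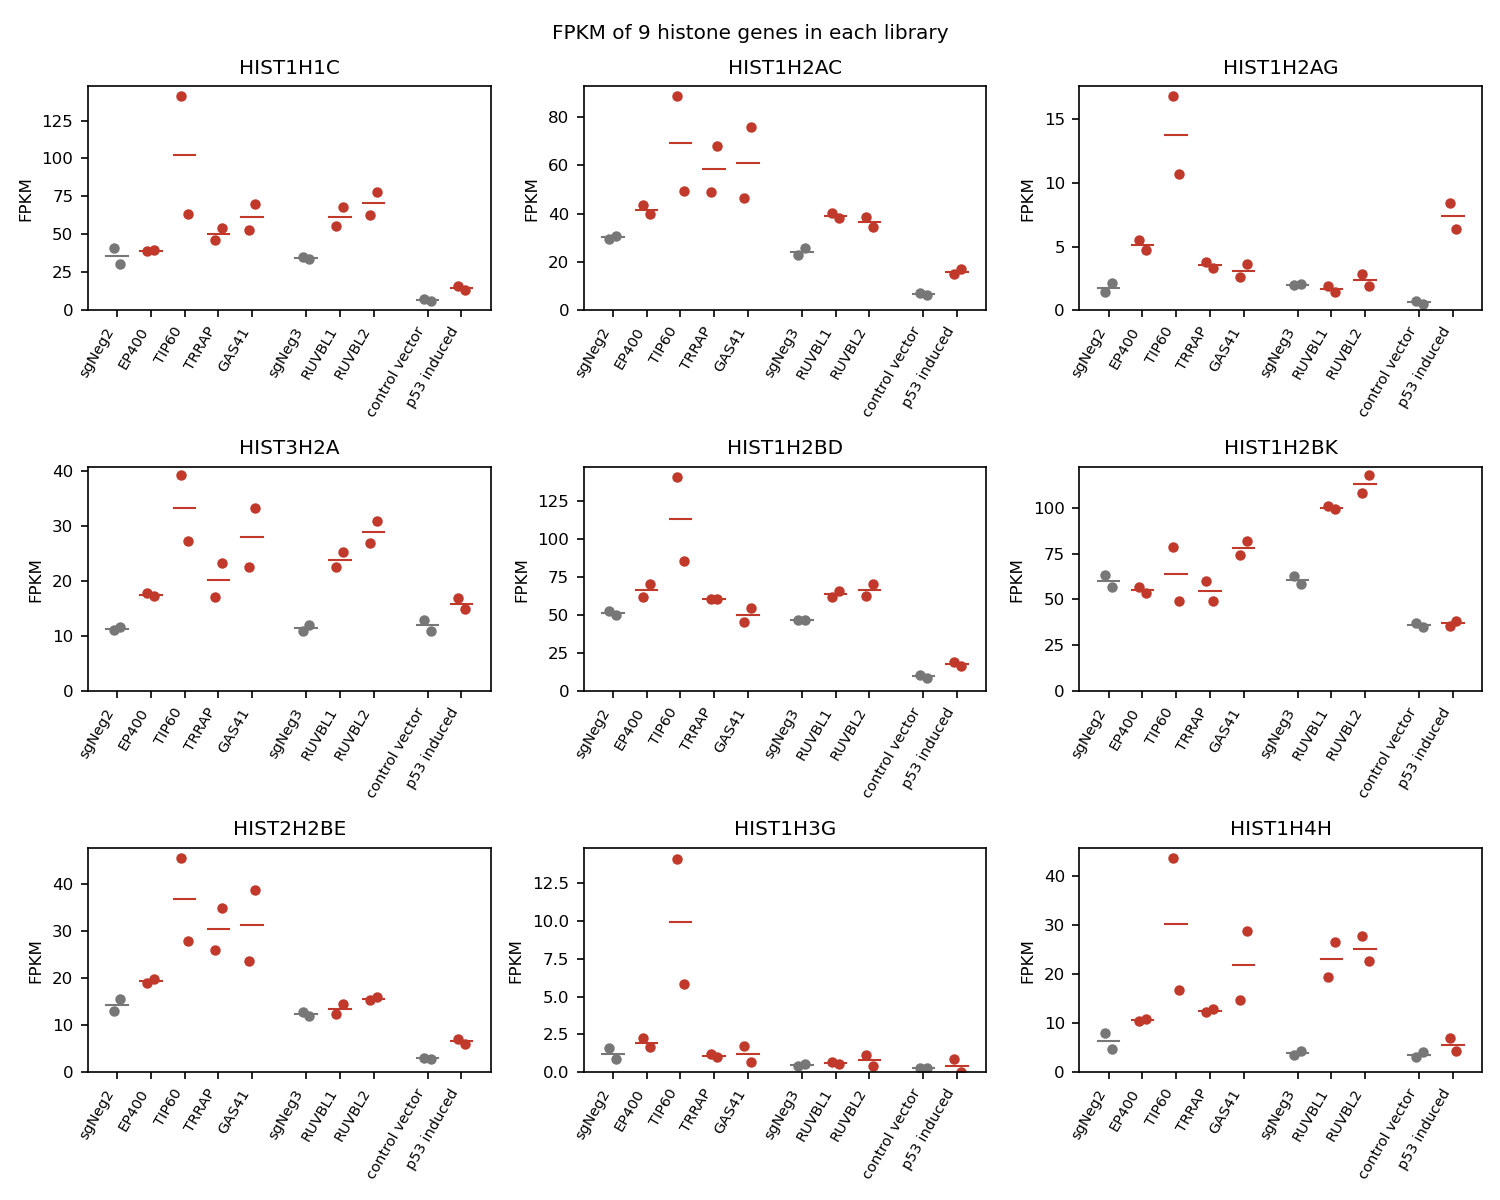
FPKM of 9 histone genes in each library of 3 sections, where points are libraries, horizontal lines are group means, grey marks controls and colour marks knockouts or p53. HIST1H2AG is called higher in TIP60, EP400 and p53 but not in RUVBL1 or RUVBL2, HIST1H2BK is called higher in RUVBL1 and RUVBL2 but not in TIP60 or p53, and HIST1H4H reaches 43.7 in a TIP60 library and 27.7 in a RUVBL2 library.

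Loss of RUVBL1 or RUVBL2, the paired AAA+ ATPases of this and other complexes, also raised histone genes, most of them H2B genes, together with the H4 gene HIST1H4H. H2B was also the type with the most members tested. Summed FPKM was 371 and 400 in RUVBL1 and 425 and 461 in RUVBL2, against 226 and 231 in sgNeg3. Of 29 members tested, 13 rose in RUVBL1 and 17 in RUVBL2 and 0 fell in either (limma, adjusted p under 0.05), against 12.3% and 13.5% of all 11063 genes called higher and 27.8% and 33.4% called in either direction. Both knockout libraries lay above both controls for 19 members in RUVBL1 and for 23 in RUVBL2, against 38.5% and 36.2% of all genes. The median log2 fold change of the tested members was 0.68 in RUVBL1 and 0.88 in RUVBL2, against -0.02 and -0.05 for all genes. The 2 comparisons share the sgNeg3 libraries. HIST1H2BF reached the filter only through the RUVBL2 libraries. HIST1H4D, HIST1H2BE and HIST1H2BO reached it only through libraries of RUVBL1 or RUVBL2. All of these genes were called higher in RUVBL2, and all but HIST1H4D in RUVBL1. None of them reached 1 FPKM in sgNeg3, so they had to be higher in a knockout to be tested.

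HIST1H4H measured 19.4 and 26.6 FPKM in RUVBL1 and 27.7 and 22.7 in RUVBL2, against 3.42 and 4.4 in sgNeg3. All 4 knockout libraries exceeded both controls, with log2 fold changes of 2.28 ± 0.20 in RUVBL1 and 2.42 ± 0.20 in RUVBL2 (limma, adjusted p = 0.000304 and 0.000119), the largest of any member in either comparison on the log2(FPKM + 1) scale. By the ratio of mean FPKM, HIST1H2BO changed more, 21.2-fold and 39.5-fold against 5.88-fold and 6.44-fold for HIST1H4H, from controls near a single fragment. HIST1H2BK, which did not pass in TIP60, measured 101 and 99.1 in RUVBL1 and 108 and 118 in RUVBL2, against 62.9 and 58.6. Its log2 fold changes were 0.71 ± 0.22 and 0.88 ± 0.22 (limma, adjusted p = 0.0387 and 0.0141). HIST1H2BO measured 3.05 and 2.40 in RUVBL1 and 3.19 and 6.96 in RUVBL2, against 0 and 0.257 (1.73 ± 0.31 and 2.36 ± 0.31). HIST1H2BE, at a mean of 1.43 in RUVBL1 and 1.4 in RUVBL2, was listed at 0 in both sgNeg3 libraries.

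The H1 gene HIST1H1C measured 55.4 and 67.9 FPKM in RUVBL1 and 62.7 and 78.1 in RUVBL2, against 34.8 and 33.5 (0.83 ± 0.19 and 1.01 ± 0.19). Among H2A genes, HIST3H2A measured 22.6 and 25.2 in RUVBL1 and 27.0 and 30.9 in RUVBL2, against 11 and 12 (0.99 ± 0.16 and 1.26 ± 0.16), and HIST1H2AC rose by 0.68 and 0.57. HIST1H2AE rose in RUVBL2 (1.66 ± 0.32). HIST1H2AG did not pass in either: it measured 1.89 and 1.43 in RUVBL1 and 2.85 and 1.94 in RUVBL2, against 1.96 and 2.06. Among H3 genes, HIST1H3D measured 3.49 and 3.25 in RUVBL1 and 4.63 and 4.82 in RUVBL2, against 0.714 and 1.21 (1.17 ± 0.22 and 1.56 ± 0.22), and it was the H3 gene called in each.

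By type, 8 of 13 H2B genes rose in RUVBL1 and 10 of 13 in RUVBL2, 2 and 3 of 7 H2A genes, 1 of 4 H3 genes in each, and 1 and 2 of 4 H4 genes. These counts include the H2B genes HIST1H2BE, HIST1H2BF and HIST1H2BO and, in RUVBL2, the H4 gene HIST1H4D, which had to be higher to be tested. HIST1H2BD (0.45 and 0.51), HIST1H2BJ (0.92 and 0.89), HIST1H2BF (0.74 and 1.03), HIST1H2BH (1.06 and 1.33) and HIST1H2BN (1.16 and 1.28) rose in both, and HIST1H2BC (1.34), HIST1H2BG (1.27) and HIST1H4D (0.91) rose in RUVBL2. Compared directly, RUVBL1 and RUVBL2 had 0 of 29 members called (limma), with 0.00904% of all genes called; the smallest adjusted p of a member was 0.646. Leaving out any 1 library of either comparison with sgNeg3 gave fewer members called and fewer of all genes called. The median log2 fold change of the tested members was then 0.63 to 0.7 in RUVBL1 and 0.82 to 0.99 in RUVBL2.

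**Figure D4:**
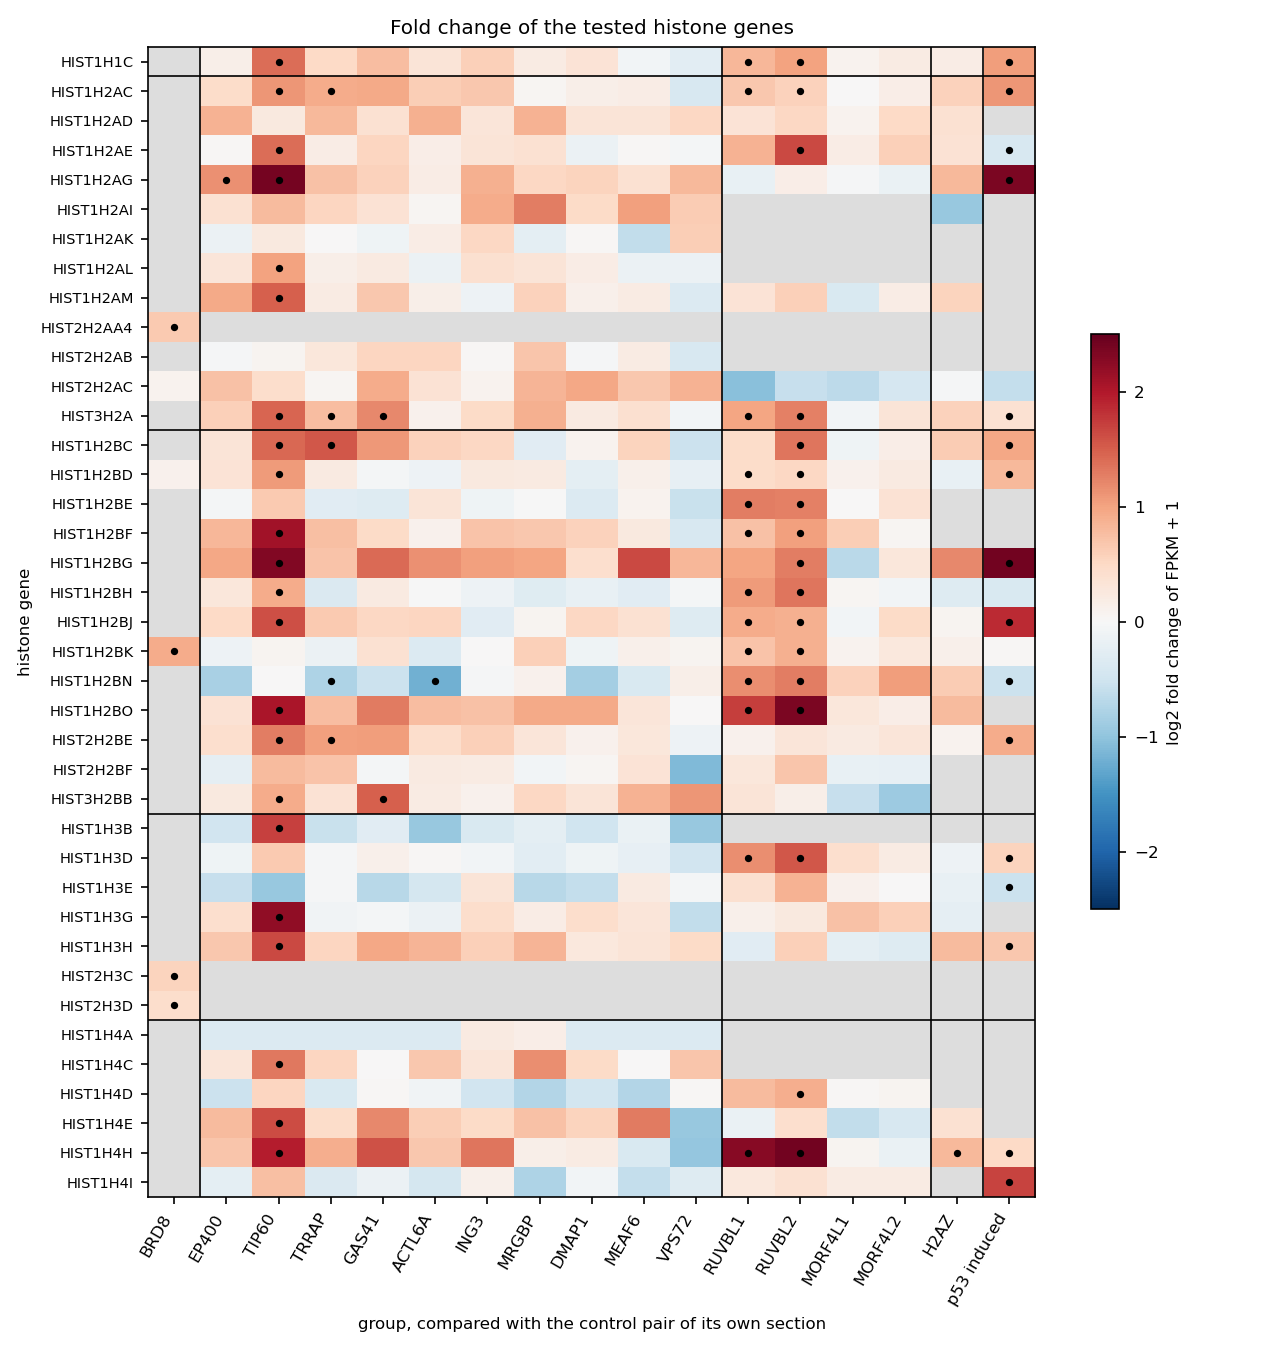
Log2 fold change of FPKM + 1 for the 39 histone genes tested in at least 1 comparison, ordered by type (horizontal lines) and by table section (vertical lines). Black dots mark genes called by limma at an adjusted p under 0.05, grey marks genes not tested there, and the columns of TIP60, RUVBL1, RUVBL2 and p53 hold 22, 13, 17 and 16 dots.

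After induction of p53 the called genes of H1 and H4 were higher, and among H2A, H2B and H3 genes some were called higher and 1 of each lower. Summed FPKM was 162 and 149 after p53 against 103 and 95.4 in the control vector. Of 19 members tested, 13 rose and 3 fell (limma, adjusted p under 0.05), but 84.3% of all 12203 genes were called in this comparison, 37.6% higher and 46.7% lower. For 13 members both p53 libraries lay above both controls, against 41.0% of all genes. The median log2 fold change of the tested members was 0.68 and that of all genes -0.13. When libraries were rescaled to a common median, these became 0.91 and 0.07, and 14 members were called higher and 1 lower, and HIST1H2AE no longer entered the test. Without the p53 libraries 7 of the 19 members would not have passed the filter, and 6 of these were called higher. For HIST1H2AG, HIST1H2BG, HIST1H3D and HIST1H4I neither control reached 1 FPKM, so these genes had to be higher to be tested.

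HIST1H2AG measured 8.41 and 6.40 FPKM after p53 against 0.761 and 0.518 (log2 fold change 2.35 ± 0.13; limma, adjusted p = 2.4e-06), and HIST1H2BG measured 5.15 and 6.63 against 0 and 0.634 (2.42 ± 0.22). HIST1H2BJ measured 8.38 and 6.01 against 1.35 and 1.10 (1.87 ± 0.14), and HIST1H4I measured 1.88 and 2.64 and was listed at 0 in both controls. Both p53 libraries exceeded both controls for each of these genes. However, HIST1H2AG, HIST1H2BG and HIST1H4I are among those that needed the p53 libraries to pass the filter, as are HIST1H2BC, HIST1H3D and HIST1H3H. Among abundant genes, HIST1H2AC measured 14.9 and 16.9 against 7.18 and 6.44 (1.11 ± 0.09), HIST1H1C 16.1 and 13.3 against 7.15 and 6.16 (1.04 ± 0.11) and HIST1H2BD 19.3 and 16.7 against 10.8 and 8.78 (0.82 ± 0.11). HIST2H2BE (0.93), HIST1H2BC (0.96), HIST1H3H (0.68), HIST1H3D (0.55), HIST1H4H (0.50) and HIST3H2A (0.38) also rose.

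HIST1H2BK, the most abundant member, was not called: it measured 35.6 and 38.2 FPKM after p53 against 36.9 and 35.2, with overlapping groups (0.03 ± 0.06; limma, adjusted p = 0.61). HIST1H3E measured 2.70 and 1.41 against 3.76 and 2.96 and fell by 0.54 on the log2 scale (SE 0.20; adjusted p = 0.0349), a call lost after rescaling (adjusted p = 0.108). HIST1H2BN (-0.53) and HIST1H2AE (-0.41) also fell, from means of 1.54 and 1.15 FPKM. Without the first p53 library the median log2 fold change of the 15 members tested was 0.29, and without the second that of the 14 tested was 0.72. Those of all genes were -0.23 and -0.22.

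Of the other knockouts in the TIP60 section, TRRAP had 5 members called, GAS41 2, EP400 and ACTL6A 1 each and the rest none. TRRAP, the scaffold that binds transcription factors, had 4 of 36 members higher and 1 lower, with 14.2% of all genes called (6.54% higher and 7.71% lower). HIST1H2BC measured 11.2 and 21.4 FPKM in the TRRAP libraries against 4.49 and 4.85 in sgNeg2 (1.55 ± 0.31; limma, adjusted p = 0.0064), HIST2H2BE 25.9 and 34.9 against 13.0 and 15.6 (1.03 ± 0.25), HIST1H2AC 49.1 and 68.1 against 29.6 and 30.7 (0.92 ± 0.29) and HIST3H2A 17.2 and 23.3 against 11.1 and 11.6 (0.77 ± 0.22). HIST1H2BN fell by 0.77, from 2.14 and 1.85 to 0.508 and 1.05. None of the 5 TRRAP calls remained without the second TRRAP library or the first sgNeg2 library, and fewer members were called without the second sgNeg2 library.

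GAS41, a reader of acylated histones encoded by YEATS4, had summed FPKM of 340 and 457 against 255 and 244. It had 2 of 36 members called, both higher, with 0.940% of all genes called and 0.580% called higher: HIST3H2A at 22.6 and 33.3 against 11.1 and 11.6 (1.2; limma, adjusted p = 0.027) and HIST3H2BB at 2.07 and 2.14 against 0 and 0.228 (1.49; adjusted p = 0.0297). HIST1H4H measured 14.8 and 28.8 against 8.08 and 4.70 and was not called (1.59 ± 0.48; adjusted p = 0.11). Without either sgNeg2 library or the second GAS41 library 0 members were called, without the first GAS41 library 1 was, and a fit on the libraries of these 2 groups alone called 15 of 23 members (13 higher, 2 lower) with 9.77% of all genes called.

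EP400, the ATPase that gives the complex its exchange activity, had 1 of 36 members called, with 3.83% of all genes called. HIST1H2AG measured 5.48 and 4.74 against 1.42 and 2.11 (1.15; limma, adjusted p = 0.0355), and the call was lost when any of the 4 libraries was left out. In ACTL6A, an actin-related subunit, 1 of 36 members was called, with 0.782% of all genes called: HIST1H2BN measured 0.291 and 0.321 against 2.14 and 1.85 (-1.2; adjusted p = 0.0238), a call lost without the second ACTL6A library or either sgNeg2 library. MRGBP, ING3, DMAP1, MEAF6 and VPS72 had 0 of 36 members called by limma. The shares of all genes called were 0.264%, 0.0264%, 0%, 0% and 0%. MORF4L1 and MORF4L2 had 0 of 29, with 0% of all genes called in each.

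Within those comparisons the members with the smallest p were as follows. In MRGBP, HIST3H2A measured a mean of 21.8 against 11.4 FPKM (0.88; limma, adjusted p = 0.13) and HIST1H2AI 1.96 against 0.214 (1.27; adjusted p = 0.152). In ING3, HIST1H2AG measured 4.11 against 1.77 (0.88; adjusted p = 0.27) and HIST1H4H 17.2 against 6.39 (1.34; adjusted p = 0.34). In DMAP1, HIST1H2BN measured 0.709 against 2.00 and HIST2H2AC 3.23 against 1.18. In MEAF6 they were HIST3H2BB (0.87) and HIST1H2BG (1.66), in VPS72 HIST3H2BB (1.10) and HIST2H2BF (-1.11), in MORF4L1 HIST1H2BF (0.62) and HIST1H3G (0.73) and in MORF4L2 HIST1H2BN (1.04) and HIST3H2BB (-0.90). None of these differences passed the test. The median log2 fold change of the members tested was 0.14 without the second MRGBP library and 0.32 without the first MORF4L2 library. The library of VPS72 had a summed FPKM of 223 and that of MEAF6 283, against 244 and 255 in sgNeg2.

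The difference between knockouts of this section was tested directly. Against EP400, TIP60 had 16 of 36 members higher and 0 lower, with 7.82% of all genes called higher and 21.3% in either direction, led by HIST1H3B (7.81 and 3.46 FPKM against 0.401 and 0.359; log2 difference 2.18 ± 0.40; limma, adjusted p = 0.00151) and HIST1H3G (1.79 ± 0.32). Against TRRAP, TIP60 had 17 of 36 higher and 0 lower, with 14.6% of all genes called higher and 38.2% in either direction, led by HIST1H3G (2.29 ± 0.32; adjusted p = 9.84e-05) and HIST1H3B (2.27 ± 0.40). HIST1H1C, HIST1H2BD and HIST3H2A were higher in TIP60 in both of these comparisons. TRRAP against EP400 had 1 of 36 members called, HIST1H2BC (1.22 ± 0.31; adjusted p = 0.046), with 3.27% of all genes called, and with the libraries rescaled 0 were.

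After H2AZ loss 1 of 24 members tested was called, a share near the 6.02% of all 11087 genes called. The median log2 fold change of the tested members was 0.37, against -0.01 for all genes. The gene called, HIST1H4H, measured 9.01, 13.5, 14.0 and 16.7 FPKM in the 4 H2AZ libraries against 7.57 and 6.46 in sgNeg4 (0.81 ± 0.19; limma, adjusted p = 0.0386). All 4 libraries exceeded both controls, but the call was lost without H2AZ replicate 2, 3 or 4 or either sgNeg4 library (limma, adjusted p = 0.0746 to 0.0974). The median log2 fold change of the members tested was 0.1 without the first sgNeg4 library and 0.19 without the second. Without the H2AZ libraries 10 of the 24 members would not have passed the filter. HIST1H2BK measured 98.9 to 125 against 108 and 86.4, and summed FPKM was 351 to 403 against 314 and 349.

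The sgNeg1/BRD8 section registered few histone genes, and its values are given apart. There 8 members reached an FPKM of 1 in any library, and HIST1H1C, HIST1H2AC and HIST2H2BE, at 6.16, 6.44 and 2.79 or more in each other library, did not exceed 0.769, 0.319 and 0.16. Conversely, HIST2H2AA4 reached 16.6 and HIST2H3C 4.22 in this section, but did not exceed 0.204 and 0 in the other 40 libraries. After BRD8 loss, 4 of 6 tested members were higher and 0 lower (limma), with 24.2% of all 8458 genes called higher and 45.9% in either direction. HIST1H2BK measured 13.1, 16.9, 16.8 and 14.8 FPKM against 6.82 and 8.51 (0.92 ± 0.11; adjusted p = 0.000146). HIST2H2AA4 (0.65), HIST2H3C (0.56) and HIST2H3D (0.43) were also higher, but these have near-identical copies among which reads cannot be placed with certainty. HIST2H3D passed the filter only through the BRD8 libraries.

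Members sharing a divergent promoter did not always move together. Of 9 such pairs with both genes tested in TIP60, 5 had both called higher, as had 3 of 8 in RUVBL2 and 2 of 4 after p53. The filter partly set these counts. HIST1H2BC and HIST1H2AG, 1 gene in each of the 2 pairs after p53, were tested only because of the p53 libraries. HIST1H2BF, in 1 of the 3 pairs in RUVBL2, was tested only because of the RUVBL2 libraries. HIST1H2BJ and HIST1H2AG, whose starts lie 248 bases apart, rose by 1.62 and 2.39 in TIP60 and by 1.87 and 2.35 after p53. In RUVBL2 HIST1H2BJ rose by 0.89 while HIST1H2AG had a log2 fold change of 0.16 that did not pass. HIST1H2BC and HIST1H2AC, 246 bases apart, both rose in TIP60, RUVBL2 and p53. HIST1H2BG and HIST1H2AE, 233 bases apart, both rose in TIP60 (2.31 and 1.4) and in RUVBL2 (1.27 and 1.66), but after p53 HIST1H2BG rose by 2.42 and HIST1H2AE fell by 0.41. HIST1H2BF enters 2 of the pairs, since the HIST1H3D entry lists more than 1 start.

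Genes of the surrounding pathway did not follow the histone genes in a fixed way. Of 20 S phase genes tested, 9 rose in TIP60 and 0 fell (median 0.36), including RRM2 (ribonucleotide reductase, 1.04), E2F1 (1.07), CDC6 (0.75) and PCNA (0.78). In RUVBL1 0 rose and 6 fell (median -0.24), and in RUVBL2 0 rose and 11 fell (median -0.51), including UHRF1 (-1.19), RRM2 (-1.18) and TK1 (thymidine kinase, -1.19) in RUVBL2. After p53, 7 rose and 8 fell of 19, with the licensing factor CDT1 at 2.67, RRM1 at 1.47 and PCNA at 0.96 against the helicase subunit MCM3 at -1.33. Those shares are near the 37.6% of all genes called higher and 46.7% called lower after p53. In TIP60 15.4% of all genes were called higher, and 1711 and 2205 of 11063 were called lower in RUVBL1 and RUVBL2. EP400 had 2 S phase genes higher, E2F1 and RRM2, and TRRAP had 1 lower, MCM7, with 3.83% and 14.2% of all genes called. In BRD8, 0 of 19 S phase genes rose and 12 fell (median -0.34), with 1838 of 8458 genes called lower. CDKN1A, the CDK inhibitor p21, rose in RUVBL1 (1.2), RUVBL2 (1.07) and p53 (1.66). These values stand beside the histone changes and their part in them was not tested.

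**Figure D5:**
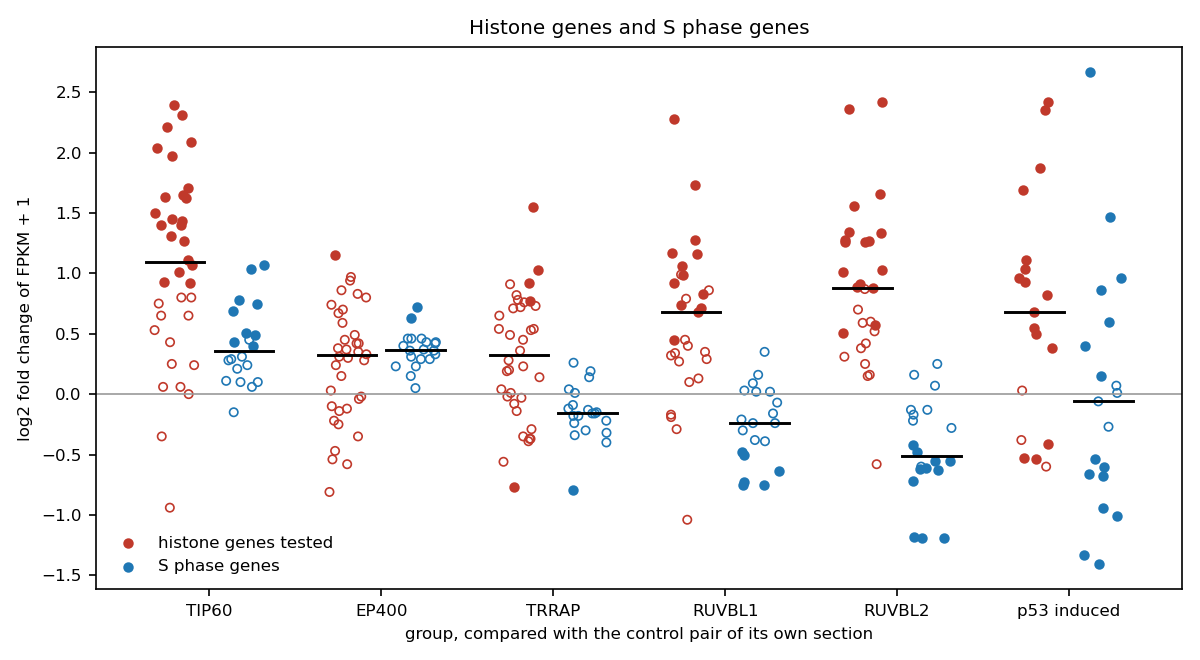
Log2 fold change of FPKM + 1 for the histone genes tested (red) and the S phase genes (blue) in 6 comparisons, with filled points for genes called by limma at an adjusted p under 0.05 and black lines at the medians. In TIP60 both medians are above 0 (1.09 and 0.36), whereas in RUVBL2 the histone median is 0.88 and the S phase median -0.51.

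Few genes of the histone mRNA processing list were called in the knockouts. The list holds factors that form histone mRNA 3′ ends beside others such as HINFP and NCBP1. SLBP, the stem-loop binding protein, measured a mean of 32.4 FPKM in TIP60 against 25.9 (log2 fold change 0.31; limma, adjusted p = 0.0718) and 26.6 in RUVBL2 against 23.8 (0.16; adjusted p = 0.479). Of 19 genes of the histone mRNA processing list tested, 0 rose and 2 fell in TIP60 (LSM10, -0.50, and SYMPK, -0.28), 3 rose and 0 fell in RUVBL1, and 3 rose and 1 fell in RUVBL2. Of all genes, 42.0%, 27.8% and 33.4% were called in either direction in TIP60, RUVBL1 and RUVBL2. The 3 that rose in each RUVBL knockout were HINFP, a regulator of H4 genes (0.92 and 0.99), UPF1 (0.84 and 0.87) and ZNF473 (0.79 and 0.51). After p53, where 84.3% of all genes were called, 6 rose and 10 fell, among them UPF1 (1.24), ZCCHC6 (1.06), NCBP1, a subunit of the cap-binding complex (-1.0), and CSTF2 (-0.92). Of the 4 subunits of NELF, a pausing factor, 0 rose and 2 fell in TIP60 (NELFCD, -0.69, and NELFA, -0.57), and 3 fell after p53.

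As a check on gene structure, the single-exon genes of the table other than the histone genes were counted in the same fits. In TIP60, 52 of 190 rose and 33 fell (median 0.03), in RUVBL2 28 of 181 rose and 30 fell (median -0.03), and after p53 109 of 210 rose and 69 fell (median 0.24). Of all genes, 15.4%, 13.5% and 37.6% were called higher in TIP60, RUVBL2 and p53. In TIP60 and after p53 the single-exon genes were thus called higher more often than all genes. The part of gene structure in the histone values was not tested. SOX2, a neural stem cell factor, fell in TIP60 (-2.03), RUVBL1 (-1.79), RUVBL2 (-2.00) and p53 (-0.57). Other cell markers did not all follow it. Of 5 tested, 1 rose and 1 fell in TIP60 (median 0.02), 0 and 2 in RUVBL1 (-0.56) and 0 and 3 in RUVBL2 (-0.9). After p53, 5 of 7 rose and 2 fell (median 0.65). Of all genes, 42.0%, 27.8%, 33.4% and 84.3% were called in either direction in these 4 comparisons. The part of cell state in the histone values was not tested.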

How the data were processed

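RNA-seq values of 48 libraries were analysed. The authors deposited 1 table of FPKM values. TopHat2, Cufflinks, Cuffdiff and hg19 are named per the submitters' processing notes, with no versions or roles, and the strand setting of the counting is not given in the sources used here. The table holds 0 columns of other samples. No counts are in it: 64.1% to 83.0% of the values checked per section, from weakly expressed genes of any kind, were whole multiples of 1 fragment within a tolerance of 0.05. Near-identical histone copies share reads, so their values are uncertain. Values were tested as log2(FPKM + 1), which understates changes of weak genes, with limma 3.58.1 in R 4.3.3 (group means, two-sided moderated tests whose prior variance follows the mean level) within each section. A gene entered if 2 or more libraries of the section reached an FPKM of 1, and adjusted p-values (Benjamini-Hochberg) cover all genes tested. The fits were tested on simulated data. Errors are standard errors. The single libraries of MEAF6 and VPS72 are assumed to vary like the replicated groups.

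The genes named were those called, the 3 of each type with the highest mean, the 2 with the smallest p where none was called, and up to 4 called genes per list with the smallest adjusted p, with a few others named for contrast after their values were seen. The members and lists were chosen with earlier results of these data known. Sequences come from GENCODE release 29 and from RefSeq, builds other than the hg19 of the values, and were matched by gene symbol. The level of the induced gene itself is not reported here.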

Additional observations from a re-analysis of the deposited data

Results flagged for a closer look

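Over 30 sets of 4 library values, 1 set per gene in BRD8 or H2AZ, 4 held a value that stood far from the others, where chance alone gives about 1 in 20. All 4 were in H2AZ. HIST1H2BC measured 10.1 FPKM in replicate 3 against 5.97 to 6.04 in the others. HIST1H2BK measured 125 in replicate 1 against 98.9 to 99.4. HIST1H4E measured 1.71 in replicate 3 against 0.737 to 0.821. HIST2H2AC was listed at 0 in replicate 3 against 1.82 to 2.18. The last 2 rest on few fragments, since a single fragment on a weak histone gene was worth a median of 0.49 to 0.844 FPKM in this section. The worth for a given gene depends on its length.

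Direct comparisons of knockouts differed in 16 members between TIP60 and EP400, in 17 between TIP60 and TRRAP and in 1 between TRRAP and EP400 (limma, adjusted p under 0.05). The column labelled both MEAF6 guide 2 and VPS72 guide 2, which entered no comparison, had a summed FPKM of the 67 genes of 288, against 244 to 255 in sgNeg2.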

How the results depend on the processing

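No called member changed direction under any alternative run. Of 986 alternative values for the 132 gene and comparison pairs named, 826 stayed on the same side of the threshold, 149 lost their call and 11 gained one. Counts of members called moved by more than 1.5 times as follows. With no filter, BRD8 had 8, TRRAP 2, ING3 1 and EP400, ACTL6A, GAS41, H2AZ and TRRAP against EP400 0. With a pseudocount of 0.1, ACTL6A had 2 and TRRAP against EP400 0, and with rescaled libraries TRRAP against EP400 had 0. With the libraries of the 2 groups only, the counts called, of the members tested there and with the share of all genes called in brackets, were as follows: EP400 had 9 of 21 members (15.3%), ING3 had 5 of 23 members (1.69%), TRRAP had 9 of 22 members (11.1%), GAS41 had 15 of 23 members (9.77%), MEAF6 had 2 of 21 members (0.457%), VPS72 had 1 of 18 members (0.243%), RUVBL1 against RUVBL2 had 2 of 27 members (1.8%) and TRRAP against EP400 had 0 of 23 members (0.0184%).

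With the label number as a replicate block on the libraries of the 2 groups, which leaves 1 residual degree of freedom for 2 against 2, the counts called, with the share of all genes called in brackets, were as follows: EP400 had 15 of 21 members (20.4%), ACTL6A had 5 of 22 members (4.33%), MRGBP had 3 of 24 members (0.922%), ING3 had 10 of 23 members (4.22%), TRRAP had 12 of 22 members (20.2%), DMAP1 had 3 of 22 members (1.98%), GAS41 had 16 of 23 members (13.6%) and MORF4L2 had 1 of 21 members (0.0928%). Same-numbered libraries did not pair in general (correlation of deviations -0.22 to 0.58), the numbers being guides or replicates of a label only. The largest correlations were 0.58 in MRGBP and 0.47 in TIP60. With the block TIP60 had 25 of 29 members called, 24 higher and 1 lower, with 46.0% of all genes called. In TIP60 1 member was also called lower with a pseudocount of 0.1 and with the libraries of the 2 groups only. MEAF6 and VPS72 could not be fitted with the block. Leaving out each library in turn gave 14 to 21 members called in TIP60, 6 to 9 in RUVBL1, 10 to 13 in RUVBL2, 10 to 15 in p53, 0 to 5 in TRRAP, 0 to 4 in H2AZ, 0 to 2 in MORF4L2, 0 to 1 in ACTL6A, MRGBP and GAS41, 3 to 4 in BRD8 and 0 in EP400. The lone library of a group is then assumed to vary like the others. The cause of these shifts was not tested. Depth limits members under 1 FPKM, where a value stands for 1 or a few fragments. Control pairs of 2 libraries limit every comparison with controls. So do the 2 libraries, or the lone library of MEAF6 and VPS72, of each group but BRD8 and H2AZ.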

Other observations

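Replacement histone genes, which are expressed outside S phase and carry poly(A) tails, were measured in the same fits. In TIP60, 3 of 11 rose, H2AFX (0.74), H2AFZ (0.73) and H1FX (0.56), and H2AFY2, which encodes a macroH2A, fell (-0.94). In RUVBL2, 0 of 11 rose and 8 fell (median -0.77), among them CENPA, the centromeric H3 (-1.67), H2AFY2 (-1.24), H2AFV (-0.92) and H3F3C (-0.83). In RUVBL1, 0 rose and 4 fell. In BRD8, 0 of 9 rose and 7 fell (median -0.37), with 1838 of 8458 genes called lower. After p53, 2 rose and 6 fell, with H2AFZ at -1.44 and H2AFY2 at 0.67. All calls are by limma at an adjusted p under 0.05. Of all genes, 15.4% were called higher and 3029 of 11382 lower in TIP60. In RUVBL1 and RUVBL2 1711 and 2205 of 11063 were called lower, and after p53 37.6% were called higher and 46.7% lower.

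Of 15 histone chaperone genes, 2 rose and 4 fell in TIP60, with ASF1B (0.85) and CHAF1A (0.58) higher and DAXX (-0.79) lower. ANP32E, a chaperone of H2A.Z, fell in TIP60 (-1.33), RUVBL1 (-1.43), RUVBL2 (-1.79) and p53 (-1.61). After p53, 1 chaperone rose and 12 fell, against 37.6% of all genes called higher and 46.7% called lower.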
